A study of Mus musculus with 25 samples.

Results

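Transcripts of the enzymes that hydroxylate and cross-link collagen were followed in mouse tumour RNA. The members were the rows of the deposited expression table whose symbol was one of P4ha1, P4ha2, P4ha3, Plod1, Plod2, Plod3, Lox, Loxl1, Loxl2 and Loxl3, and all 10 were found among its 25006 entries. The members were chosen by name with their normalized counts in the same control and anti-CD73 libraries known, so their differences between these groups are given as a description and without a test. RNA was sequenced from material labelled as enriched CD8+ T cells of E0771 tumours, a mammary carcinoma line, in C57BL/6 mice. The 3 control libraries carry the treatment label con, with no control antibody named, and the 3 anti-CD73 libraries came from tumour-bearing mice given anti-CD73, an antibody to an adenosine-forming ectoenzyme, every 3 days. The labels give no age of the mice. The other 19 of the 25 samples, spleen CD8+ T cells cultured for 7 days, were not analysed here.

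Prolyl 4-hydroxylases turn proline of the procollagen chain into hydroxyproline in the endoplasmic reticulum, which lets the triple helix stay folded at body temperature. Lysyl hydroxylases modify lysine on the same chains, and both families are dioxygenases that use iron, oxygen, 2-oxoglutarate and ascorbate. After secretion, the copper-dependent lysyl oxidases oxidise lysine and hydroxylysine to aldehydes that then form the cross-links between collagen or elastin molecules. In solid tumours these enzymes are known from fibroblasts, tumour cells and macrophages, and P4ha1, P4ha2, Plod2, Lox and Loxl2 are textbook targets of the hypoxia-inducible factor HIF.

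Promoter windows are shown for the prolyl 4-hydroxylase genes, chosen after their differences between the groups were seen. The groups overlapped for P4ha1 and P4ha3, and a link of the windows to these differences was not tested. Each window runs from 250 bases before to 50 bases after the transcript start used in the RefSeq promoter table, on the plus strand of GRCm38.p6 (the assembly of mm10), and capitals mark ACGTG or GCGTG, the core letters of a hypoxia response element, on either strand. The windows lie at chr10:59323046-59323345 (P4ha1), chr11:54100674-54100973 (P4ha2) and chr7:100285270-100285569 (P4ha3). That start equals the first base of the gene for P4ha2 and lies inside the gene for P4ha1 (base 59323296) and P4ha3 (base 100285520).
P4ha1: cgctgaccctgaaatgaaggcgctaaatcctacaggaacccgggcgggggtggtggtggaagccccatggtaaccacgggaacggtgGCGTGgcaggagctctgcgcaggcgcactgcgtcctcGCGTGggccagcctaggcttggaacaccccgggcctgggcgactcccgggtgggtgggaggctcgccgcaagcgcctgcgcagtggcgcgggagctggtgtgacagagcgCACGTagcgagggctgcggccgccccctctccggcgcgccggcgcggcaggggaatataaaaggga
P4ha2: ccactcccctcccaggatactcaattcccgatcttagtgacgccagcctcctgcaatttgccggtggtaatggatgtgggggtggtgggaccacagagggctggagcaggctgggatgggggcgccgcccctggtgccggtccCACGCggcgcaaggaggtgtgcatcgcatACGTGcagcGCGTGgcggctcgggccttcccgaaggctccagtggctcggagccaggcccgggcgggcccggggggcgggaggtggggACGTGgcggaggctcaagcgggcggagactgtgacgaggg
P4ha3: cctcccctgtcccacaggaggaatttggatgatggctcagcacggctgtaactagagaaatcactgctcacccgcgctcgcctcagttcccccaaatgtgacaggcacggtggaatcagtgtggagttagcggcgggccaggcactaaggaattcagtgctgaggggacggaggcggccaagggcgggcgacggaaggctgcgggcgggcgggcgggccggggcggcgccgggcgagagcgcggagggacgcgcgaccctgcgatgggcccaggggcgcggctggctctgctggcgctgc

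The P4ha1 window held 3 such matches and the P4ha2 window 4, whereas the P4ha3 window held 0. Of P4ha2's matches, ACGTG began 78 bases before the start and GCGTG 69 bases before it. The windows were similarly rich in G and C, at 70.3, 70.3 and 69.3% for P4ha1, P4ha2 and P4ha3, against a median of 52.7% over all windows. Of 32851 windows of this length, 43.8% held at least 1 ACGTG or GCGTG, so a match is common and describes only these letters. RefSeq windows were used for 5 of the 10 members, and Lox was left out of this search beforehand. The other two of these 5, Plod1 and Plod3, held 2 and 4 matches. The AP-1 letters TGANTCA occurred in none of the 5 windows (0 matches) and in 7.81% of all windows.

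The libraries held 10180624 to 17161679 reads in genes. Control replicate 1 stood apart: over the 12262 genes tested, its log2 distance from the average of the other controls had an SD of 0.75, against 0.35 for the distance between those controls. Defining markers of the labelled cell type were scarce, as 11 measured T cell and CD8 genes together took 0.00138 to 0.00527% of the reads of the controls and 0.0026 to 0.00524% of those after anti-CD73, with 0 of the 11 at 0 in every library. Genes of other cells were present: 11 macrophage markers took 0.0519 to 0.0977% and then 0.0847 to 0.154%, and 11 fibroblast markers 0.0328 to 0.0405% and then 0.0437 to 0.0506%. Without the 3 collagens of that list, the other 8 fibroblast markers overlapped between the groups, at 0.0177 to 0.0223% and 0.0206 to 0.0257%. Control replicate 1 alone gave the upper control values of T cell and macrophage markers. The other controls had 0.00138 and 0.00171% for T cell markers and 0.0594 and 0.0519% for macrophage markers. In such bulk material, fewer cells of a type and less RNA per cell cannot be told apart. The labels do not tie the replicates to separate mice, so the spread between them may be technical.

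All 10 members had a mean of at least 10 normalized counts (gene counts divided by the authors' size factor of the library) and entered the fit over all genes. By limma, 0 of the 10 had an adjusted p under 0.05 (background 0% of the genes tested; 3 members had an unadjusted p under 0.05, as in edgeR, against 15.5% of all genes by limma). The groups did not overlap for 3 members, P4ha2, Plod3 and Loxl1, all of them higher after anti-CD73, against 23.5% of all genes in either direction and 11.5% in this one. Since this contrast was known when the family was proposed, nothing is read from these shares. On the log2 scale 5 members lay higher and 5 lower, with a median difference of 0.013 beside 0.0039 for all genes tested.

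**Figure D1:**
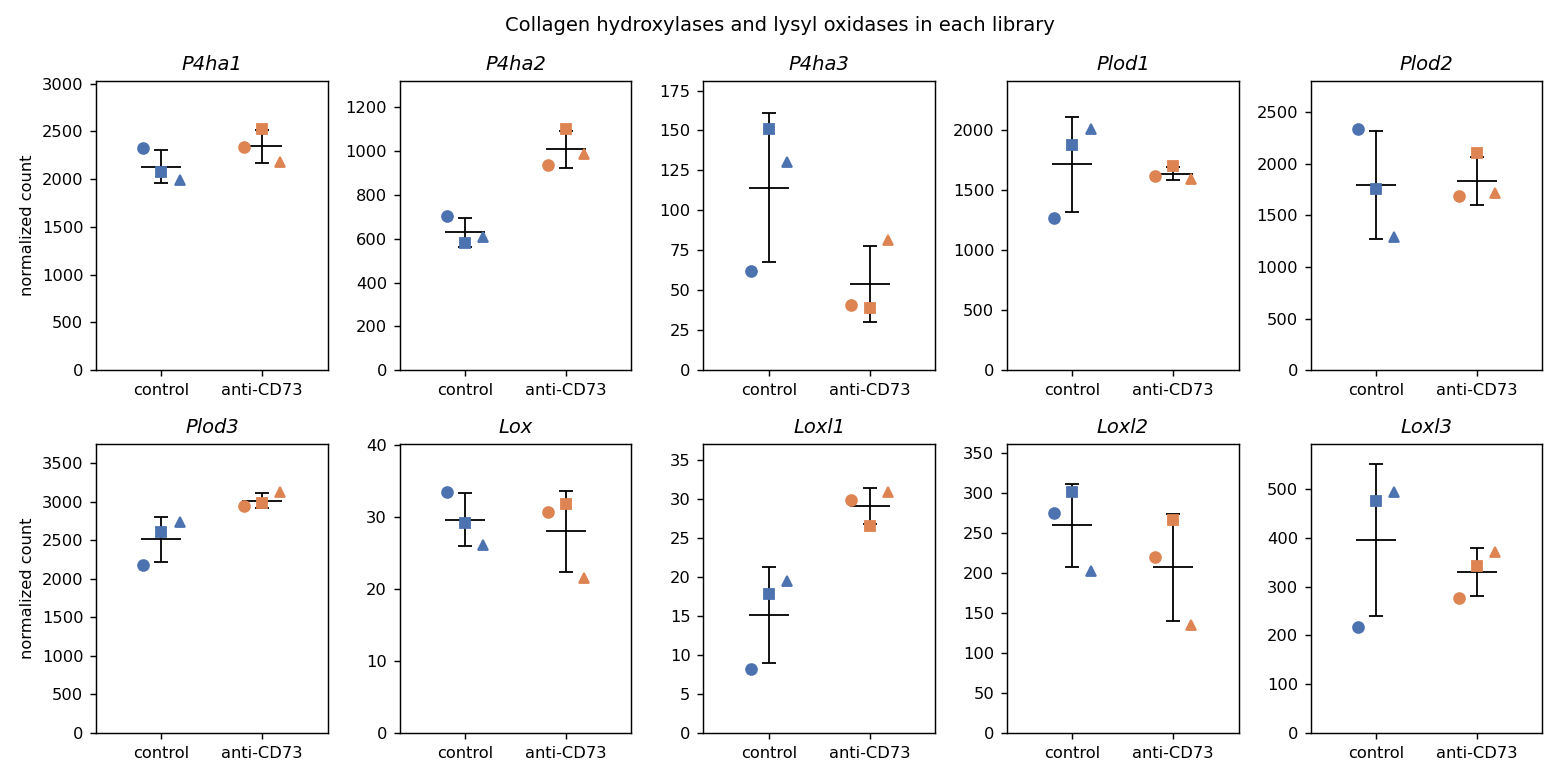
Normalized counts (linear axis from 0, a separate scale for each gene) of the 10 enzymes in each library. Circles, squares and triangles are replicates 1, 2 and 3 of the control (blue) and anti-CD73 (orange) groups, and black lines give the mean and SD (n = 3). The groups are separate for P4ha2, Plod3 and Loxl1, and control replicate 1 lies far below the other controls for P4ha3, Loxl1 and Loxl3.

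The prolyl 4-hydroxylase alpha subunits carry the catalytic site and pair with protein disulphide isomerase (P4hb). P4ha2, the second catalytic subunit (ENSMUSG00000018906; mm10 chromosome 11, 54100924 to 54131668), had normalized counts of 705, 579 and 607 in control replicates 1, 2 and 3, and of 938, 1100 and 986 with anti-CD73. Every anti-CD73 library lay above every control. The means were 630 ± 66.0 and 1008 ± 83.2 (SD, n = 3), a ratio of 1.60, and the log2 difference was 0.68 with a standard error of 0.13. Leaving out any single library kept this difference between 0.61 and 0.76.

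P4ha1, the most widely expressed subunit (ENSMUSG00000019916; chromosome 10, 59323197 to 59373304), had 2329, 2075 and 1991 normalized counts in the controls and 2338, 2523 and 2177 after anti-CD73. Control replicate 1 lay within the anti-CD73 range, and the groups overlapped. P4ha1 had a log2 difference of 0.14 (SE 0.11), with means of 2132 ± 176 and 2346 ± 173 (SD, n = 3).

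P4ha3, the third subunit gene (ENSMUSG00000051048; chromosome 7, 100285489 to 100319701), went the other way, with normalized counts of 61.9, 151 and 130 in the controls and 40.9, 39.2 and 81.2 after anti-CD73. Control replicate 1 lay below anti-CD73 replicate 3, so the groups overlapped. The means were 114 ± 46.5 and 53.8 ± 23.8 (SD, n = 3), a ratio of 0.47, from 37 to 174 reads per library. The log2 difference of P4ha3 was -1.06 (SE 0.42), and it was -1.45 without control replicate 1.

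Levels of different genes were not ranked, since no transcript lengths were used here, but a ratio of the same pair of genes can be followed from library to library and does not depend on library scaling. The pairs were chosen after their values were seen, and no test is given. The P4ha2 to P4ha1 ratio was 0.303, 0.279 and 0.305 in the controls and 0.401, 0.436 and 0.453 after anti-CD73. The control values lay close together, control replicate 1 included, and below all values after anti-CD73. The means were 0.295 ± 0.0143 and 0.430 ± 0.0263 (SD, n = 3), and the log2 difference was 0.54, or 0.50 to 0.59 with each library left out in turn. As a share of the summed counts of the prolyl 4-hydroxylase genes, P4ha2 took 21.9 ± 1.11% in the controls and 29.6 ± 1.13% after anti-CD73, while P4ha3 took 4.05 ± 1.80% and 1.60 ± 0.785% (SD, n = 3).

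**Figure D2:**
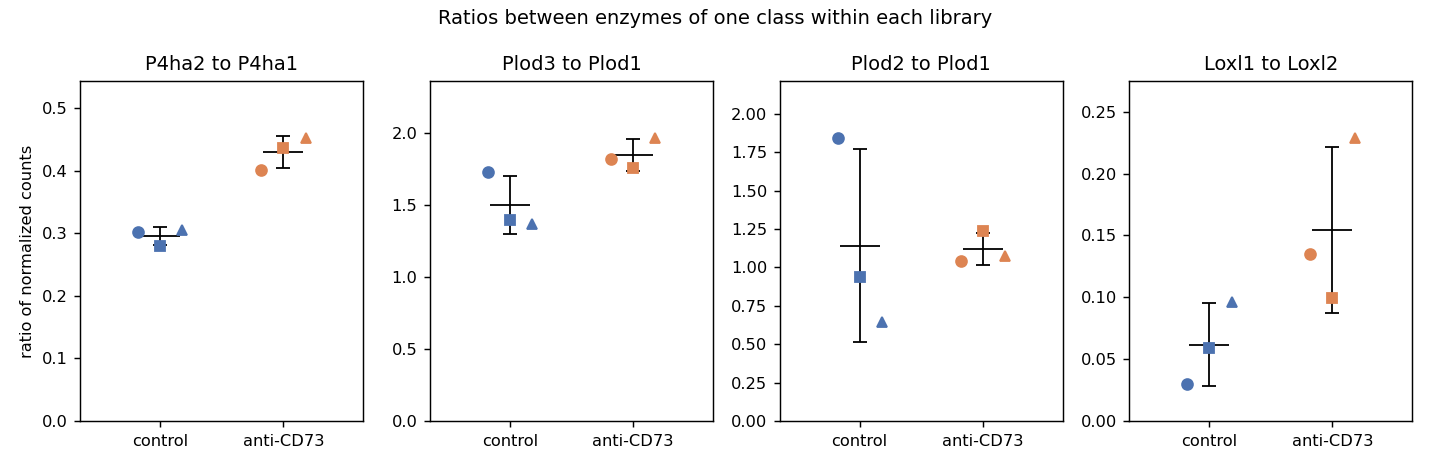
Ratios of normalized counts between enzymes of one class within each library (linear axes from 0). Circles, squares and triangles are replicates 1, 2 and 3, and black lines give the mean and SD (n = 3). The P4ha2 to P4ha1 ratio lies between 0.279 and 0.305 in the controls and between 0.401 and 0.453 after anti-CD73, while the Plod2 to Plod1 ratio of control replicate 1 lies above all other libraries.

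Among the lysyl hydroxylases, Plod3, which also transfers galactose and glucose onto hydroxylysine (ENSMUSG00000004846; chromosome 5, 136987019 to 136996646), had 2187, 2614 and 2745 normalized counts in the controls and 2942, 2984 and 3130 after anti-CD73. The groups were separate, with control replicate 1 the lowest of all libraries. The means were 2515 ± 292 and 3019 ± 98.8 (SD, n = 3), and the log2 difference of Plod3 was 0.27 (SE 0.12), or 0.17 without control replicate 1. The start of Plod3 overlaps Znhit1, a gene with a mean of 580 normalized counts, and the labels do not say how shared reads were counted.

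Plod1, which hydroxylates lysines of the collagen helix (ENSMUSG00000019055; chromosome 4, 147909753 to 147936776), had 1265, 1875 and 2007 normalized counts in the controls and 1622, 1699 and 1593 after anti-CD73. The anti-CD73 values lay inside the control range and varied by 3.36% (coefficient of variation), against 23.1% in the controls. Plod1 had a log2 difference of -0.039 (SE 0.18), and it turned positive without control replicate 2 or 3. Without control replicate 1 it was -0.24.

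Plod2, which hydroxylates the telopeptides and so steers cross-links to their hydroxylysine-derived form (ENSMUSG00000032374; chromosome 9, 92539636 to 92608428), was highest in control replicate 1, at 2335 normalized counts beside 1757 and 1295 in control replicates 2 and 3. After anti-CD73 it stood at 1690, 2104 and 1713, inside the control range. The log2 difference of Plod2 was 0.065 (SE 0.22). It was 0.28 without control replicate 1, -0.15 without control replicate 3 and -0.037 without anti-CD73 replicate 2.

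Within the lysyl hydroxylases, the Plod3 to Plod1 ratio was 1.73, 1.39 and 1.37 in the controls and 1.81, 1.76 and 1.97 after anti-CD73. Control replicate 1 came within a small distance of the anti-CD73 libraries, and its Plod2 to Plod1 ratio of 1.85 lay above the 0.645 to 1.24 of the other libraries. In control replicate 1, Plod1 stood at 0.652 times and Plod2 at 1.53 times the mean of the other controls.

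The lysyl oxidases together had 534 to 825 summed normalized counts in the controls and 557 to 668 after anti-CD73. Loxl1, which cross-links elastin in elastic fibres (ENSMUSG00000032334; chromosome 9, 58287723 to 58313212), had 8.12, 17.7 and 19.5 normalized counts in the controls and 29.8, 26.5 and 30.8 after anti-CD73. The groups were separate, but on few reads: 8, 14 and 26 in the controls and 32, 25 and 30 after anti-CD73. The 8 reads of control replicate 1 have a 95% Poisson interval of 3.45 to 15.8 reads, and intervals here cover counting error only. Loxl1 had a log2 difference of 0.98 (SE 0.38), which was 0.61 without control replicate 1 and 1.20 without control replicate 3.

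Lox, the founding member that cross-links fibrillar collagen and elastin (ENSMUSG00000024529), had only 21 to 35 reads per library. Its normalized counts were 33.5, 29.1 and 26.2 in the controls and 30.7, 31.8 and 21.6 after anti-CD73, so the groups overlapped throughout. Lox had a log2 difference of -0.09 (SE 0.28), and no difference was detectable at this depth.

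Loxl2, which also cross-links collagen IV of basement membranes (ENSMUSG00000034205; chromosome 14, 69608692 to 69695834), had 275, 302 and 202 normalized counts in the controls and 220, 267 and 135 after anti-CD73. The groups overlapped, with a low library in each. The log2 difference of Loxl2 was -0.36 (SE 0.28), or -0.57 without anti-CD73 replicate 2 and -0.078 without anti-CD73 replicate 3.

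Loxl3, the close relative of Loxl2 (ENSMUSG00000000693; chromosome 6, 83034205 to 83052566), had 217, 476 and 495 normalized counts in the controls and 276, 343 and 371 after anti-CD73. Control replicate 1 was the lowest library and the other controls the highest, so that the anti-CD73 libraries lay between them. For Loxl3 the log2 difference was -0.18 (SE 0.32), -0.57 without control replicate 1 and 0.026 without control replicate 3. The end of Loxl3 overlaps Htra2, which had a mean of 602 normalized counts.

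**Figure D3:**
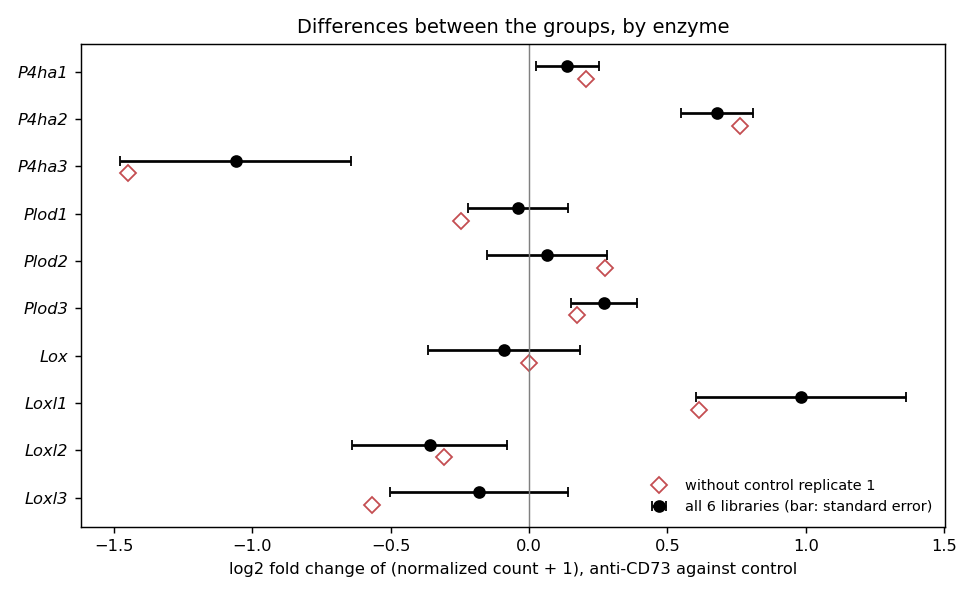
Log2 difference of (normalized count + 1), anti-CD73 against control, for each enzyme. Black circles with standard error bars use all 6 libraries and open red diamonds leave out control replicate 1. P4ha2 lies at 0.68 and 0.76 and P4ha3 at -1.06 and -1.45, while Loxl3 goes from -0.18 to -0.57.

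By limma without control replicate 1, 3 of the 10 members had an adjusted p under 0.05, P4ha2 higher and P4ha3 and Loxl3 lower, beside 22.2% of all genes (11.9% higher and 10.3% lower). For P4ha3 and Loxl3, and for Loxl1 as well, control replicate 1 stood at 0.441, 0.448 and 0.437 times the mean of the other controls. DESeq2 with all 6 libraries called 1 member, P4ha2, beside 4.78% of genes. Since the members were chosen with these values known, the counts are no test of the members, and nothing is read from them.

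The partners of these enzymes came from 9 lists of genes written from pathway knowledge, with earlier results of these data known. Together they had 108 tested genes besides the members, of which 0 had an adjusted p under 0.05 by limma (background 0%), while 25 had an unadjusted p under 0.05 by limma (23.1%, beside 15.5% of all genes) and 25 by edgeR. The groups did not overlap for 25 of the 108, or 23.1%, close to the 23.5% of all genes. DESeq2 called 7 of the 108, or 6.48%, beside 4.78% of genes. Limma without control replicate 1 called 39 (17 higher, 22 lower), or 36.1%, beside 22.2% of all genes.

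In the list of procollagen folding and modification in the endoplasmic reticulum, 0 of 20 tested genes passed, 8 lay higher and 12 lower, and the median log2 difference was -0.041, or -0.0087 without anti-CD73 replicate 1 and -0.064 without control replicate 3. Serpinh1, the collagen chaperone HSP47, had normalized counts of 10998, 12565 and 11765 in the controls and of 16177, 14937 and 15501 after anti-CD73. These groups were separate, with a log2 difference of 0.40 (SE 0.11, adjusted p = 0.183 by limma). Pdia4, a disulphide isomerase, had 0.23 (SE 0.10) and Sec23a, part of the coat of vesicles that leave the endoplasmic reticulum, -0.19 (SE 0.11). P4hb, the partner of the P4ha subunits, was chosen after its values were seen and had -0.11 (SE 0.11), with 13483 to 15455 normalized counts over all libraries. The ratio of P4ha2 to P4ha1 above thus stood beside a P4hb level that overlapped between the groups.

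The fibrillar collagens and elastic fibre proteins are the substrates of these enzymes, and 11 of 11 tested genes lay higher after anti-CD73, with a median log2 difference of 0.48 beside 0.0039 for all genes, and 0 passed. The groups were separate for 6 of the 11, all higher, beside 11.5% of all genes. Without control replicate 1 the median was 0.35, and Col2a1 turned from 0.26 to -0.27. Without control replicate 2 the median was 0.62. Col5a3, a chain of type V collagen, went from 5738 ± 243 to 9143 ± 1595 normalized counts (SD, n = 3; log2 difference 0.66, SE 0.14, adjusted p = 0.157 by limma). Col11a2 had a log2 difference of 1.31 (SE 0.37). Eln, the elastin gene, had 0, 2.53 and 5.24 normalized counts in the controls and 13.9, 29.6 and 20.6 after anti-CD73. This was the same direction as Loxl1 and likewise on few reads. Eln (control mean 2.59) and the fibrillin gene Fbn2 (control mean 9.67, log2 difference 0.0014) passed the filter at a mean of 10 only through their anti-CD73 values. Their direction was thus partly fixed by the filter, as was the separation of Eln. With a filter at 50, the median of this substrate list was 0.41. In 4 tested basement membrane collagens the median was 0.09, 0 passed, and Col15a1 (1.36, SE 0.41), Col18a1 (-0.21, SE 0.37) and Col4a2 (0.12, SE 0.25) had the smallest p. This median was -0.20 without control replicate 1 and 0.29 without control replicate 2. Fibroblast markers, of which Col1a1, Col1a2 and Col3a1 also belong to the fibrillar list, took 0.0328 to 0.0405% of reads in the controls and 0.0437 to 0.0506% after anti-CD73. Without these 3 collagens, a comparison added after seeing the data, the shares were 0.0177 to 0.0223% and 0.0206 to 0.0257% and overlapped. Of the 9 fibroblast markers tested, 6 lay higher, the collagens included, and 3 lower. The 8 markers of pericytes and smooth muscle took 0.00336 to 0.00389% and 0.00558 to 0.00683%. In both marker lists 0 genes were at 0 in every library, and their part in the higher collagen values was not tested.

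In the list of procollagen processing and matrix assembly, 9 of 17 tested genes lay higher and 8 lower, with a median of 0.0014, and 0 passed. The median was -0.092 without control replicate 1 and 0.08 without anti-CD73 replicate 2. Fn1, fibronectin, had a log2 difference of 1.45 (SE 0.23, adjusted p = 0.141 by limma), Tgm2, a transglutaminase that also cross-links matrix proteins, 0.98 (SE 0.35), and Postn, periostin, -0.66 (SE 0.32). Loxl4, the lysyl oxidase outside the members, was chosen after its values were seen and had 645, 769 and 797 normalized counts in the controls and 686, 659 and 877 after anti-CD73. These overlapped, with a log2 difference of 0.0014 (SE 0.16).

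Hypoxia-inducible genes lay mostly lower, 19 of 25, with a median log2 difference of -0.12, and 0 passed. The groups were separate for 5 lower and 1 higher of the 25, beside 12% and 11.5% of all genes. Without control replicate 1 the median was -0.21, and limma called 11 of the 25 lower and 1 higher, beside 10.3% and 11.9% of all genes. Egln3, a HIF prolyl hydroxylase that HIF itself induces, had -0.51 (SE 0.13, adjusted p = 0.171 by limma), the histone demethylase gene Kdm3a -0.42 (SE 0.12) and Adm, adrenomedullin, -0.69 (SE 0.21). Among the hypoxia-responsive members, P4ha2 lay at 0.68 (SE 0.13), P4ha1 at 0.14 (SE 0.11) and Plod2 at 0.065 (SE 0.22). Lox lay at -0.09 (SE 0.28) and Loxl2 at -0.36 (SE 0.28). Leaving out a single library could turn Plod2 and Lox, so no shared or differing direction is read from these members.

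Among HIF hydroxylases and other 2-oxoglutarate dioxygenases, 7 of 14 tested genes lay higher and 7 lower (median -0.0099, 0.035 without anti-CD73 replicate 1 and -0.062 without control replicate 3, 0 passed), with Egln3 as above, Tet2 at 0.74 (SE 0.22) and Egln2 at 0.32 (SE 0.25). For copper supply, 5 of 7 lay higher (median 0.075, -0.0088 without control replicate 1 and 0.11 without anti-CD73 replicate 1, 0 passed). Atp7a, the pump that loads copper into lysyl oxidases in the Golgi, had 333, 227 and 120 normalized counts in the controls and 393, 431 and 305 after anti-CD73, with overlap through control replicate 1 (log2 difference 0.83, SE 0.35). The copper transporter genes Slc31a2 and Slc31a1 had 0.31 (SE 0.18) and -0.24 (SE 0.20). The list named ascorbate uptake also holds Gsto1, a glutathione transferase and not a transporter. In this list 4 of 4 lay lower (median -0.15, 0 passed, -0.30 without control replicate 3). They were Gsto1 (-0.33, SE 0.11), Slc23a2, the ascorbate transporter (-0.15, SE 0.18), Slc2a1 (-0.15, SE 0.18) and Slc2a3 (-0.12, SE 0.19). The groups were separate for Gsto1 only. Without control replicate 1, limma called 2 of these 4 lower, beside 10.3% of all genes. TGF-beta genes split evenly, 6 of 12 higher (median 0.036, 0 passed), with Ltbp1 at -0.52 (SE 0.14), the TGF-beta-induced matrix gene Tgfbi at 1.24 (SE 0.35) and the inhibitory Smad7 at -0.45 (SE 0.13). Without control replicate 1 the TGF-beta median was 0.29 and without control replicate 3 it was -0.36.

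**Figure D4:**
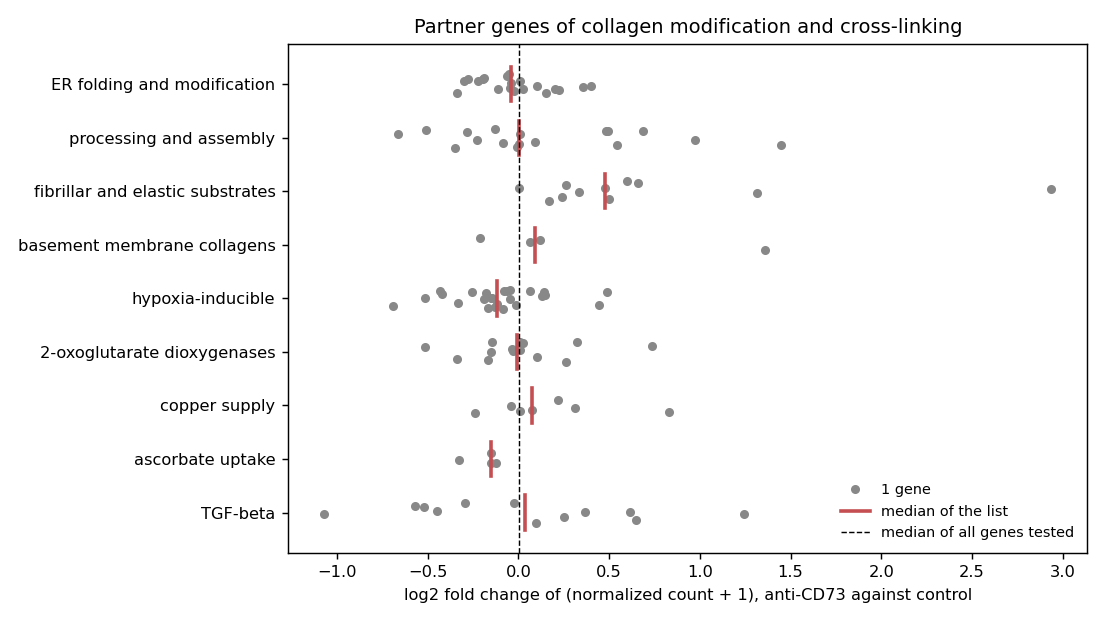
Log2 difference of (normalized count + 1), anti-CD73 against control, for each tested gene (grey points) of the 9 partner lists, with the median of each list (red line) and of all genes tested (dashed line). All 11 substrate genes lie at or above 0 with a median of 0.48, Eln and Fbn2 among them only through their anti-CD73 values. Without control replicate 1, Col2a1 falls below 0. Most hypoxia-inducible genes lie below 0 with a median of -0.12.

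For the member of each class with the highest mean count, the genes with the most similar pattern over the 6 libraries were looked up among 9908 protein-coding genes with a mean of at least 50 normalized counts. With 6 libraries many genes resemble any pattern, and 180, 123 and 235 genes had a Pearson r above 0.95 with P4ha1, Plod3 and Loxl3. P4ha1 was most like Sirpb1b (r = 0.995), Endod1 (0.995) and the leukocyte integrin gene Itgb2 (0.992). Itgb2 had 1459, 797 and 644 normalized counts in the controls and 1710, 2179 and 1031 after anti-CD73, so that P4ha1 was high in the libraries where this leukocyte gene was high, control replicate 1 included. The 11 macrophage markers took 0.0519 to 0.0977% of the reads of the controls and 0.0847 to 0.154% after anti-CD73, with 0 markers at 0 in every library, and their part in the P4ha1 values was not tested. Plod3 was most like Sft2d1 (0.998), Usp19 (0.994) and Ikbkb (0.993), and Loxl3 was most like Pccb (0.995), Nek9 (0.994) and Cep164 (0.994).

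The remaining marker lists gave the setting of these values. The 8 neutrophil markers took 0.0442 to 0.058% of reads in the controls and 0.0669 to 0.118% after anti-CD73, the 7 endothelial markers 0.00166 to 0.00596% and 0.00457 to 0.00709%, the 7 epithelial or tumour markers 0.0151 to 0.0363% and 0.0173 to 0.0219%, and 5 measured erythroid markers 0.0603 to 0.457% and 0.0682 to 0.252%. None of these markers (0) was at 0 in every library, and 0 passed the test. Control replicate 1 gave the highest endothelial share of the controls and the lowest neutrophil, epithelial and erythroid shares. The parts of these cell types in the members' values were not tested.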

How the data were processed

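RNA-seq values of 6 mouse tumour libraries were used, 3 per group. Groups and replicate numbers follow the titles. The submitters' short library names carry other numbers, and libraries were matched by description. The deposited signal holds read counts per gene after division by the DESeq size factor of each library, as the labels name it. The submitters' processing notes list Bowtie 0.12.7 and mm10 but give them no role. For the counter, the annotation and strandedness the labels give nothing, so reads of overlapping or near-identical genes may be split or lost. Every value (100%) was a whole multiple of 1 read within 0.01, so reads were recovered by division.

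Groups were compared by a two-sided limma-trend fit (version 3.58.1 in R 4.3.3) of log2(normalized count + 1) for 12262 genes with a mean of at least 10, with Benjamini-Hochberg adjustment and a threshold of 0.05. Such differences understate changes of genes with few reads. edgeR 4.0.16 (quasi-likelihood) and DESeq2 1.42.0 were run on recovered reads, and called 0 and 586 genes. Other settings were pseudocounts of 0.5 and 8, a filter at 50 or none, TMM scaling, a replicate block and leaving out each library. The members and lists were chosen with earlier results of these data known. Named partner genes are the 3 with the smallest p in each list, and similar genes are the 3 with the highest r. Other partner genes, among them P4hb, Loxl4, Slc2a3, Col2a1 and Fbn2, were named outside this rule. Scripts were tested on simulated data. No transcript lengths were used here, so shares of a class are compared only between libraries. Coordinates are 1-based, from the GRCm38.p6 RefSeq table, and figures were drawn with matplotlib 3.10.9.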

Additional observations from a re-analysis of the deposited data

How the results depend on the processing

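No gene, member or partner gene was called with pseudocounts of 0.5 and 8, a filter at 50 or none, TMM scaling or edgeR (0 in each). DESeq2 called 586 genes, 1 member and 7 partner genes. With each library left out in turn, calls ranged from 0 to 2724 genes, 0 to 3 members and 0 to 39 partner genes, and only leaving out control replicate 1 gave any. The title's replicate number as a block also gave 0 calls. Deviations of libraries with the same title number correlated at 0.19, -0.096 and 0.26, so the numbers were not taken to pair the libraries. Control replicate 2 did not correlate best with its own number. The submitters' short names instead give the same number to control replicate 2 and anti-CD73 replicate 1 (-0.16), and to control replicate 3 and anti-CD73 replicate 3 (0.26). A block by these short names was not tried.

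With all alternatives run, every member's log2 difference moved by less than 1 SD between replicates. With these group sizes, leaving out a single library cannot move a difference that far. The filters and the replicate block leave the difference of a kept gene unchanged. Only pseudocounts, TMM scaling, edgeR and DESeq2 could have passed this limit, so no stability against leaving out libraries is read from it. With each library left out, P4ha1, P4ha2, P4ha3, Plod3, Loxl1 and Loxl2 kept their direction, and the ranges were 0.085 to 0.20, 0.61 to 0.76, -1.45 to -0.81, 0.17 to 0.34, 0.61 to 1.20 and -0.57 to -0.078. Plod1 (-0.24 to 0.088), Plod2 (-0.15 to 0.28), Lox (-0.19 to 0.081) and Loxl3 (-0.57 to 0.026) turned with at least 1 library. The causes were not tested. Leaving out libraries for the ratios was added after seeing the data, and gave log2 differences of 0.50 to 0.59 for P4ha2 to P4ha1, 0.25 to 0.42 for Plod3 to Plod1 and 0.95 to 1.80 for Loxl1 to Loxl2. Few reads limit Lox and Loxl1.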
